A study of Mus musculus with 24 samples.

Results

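The genes described here encode the proteins of the cytosolic ribosome. They were taken from the deposited count table as the protein-coding genes of GENCODE M21 whose symbols are Rpl or Rps followed by a digit, or Rplp0, Rplp1, Rplp2 or Rpsa, leaving out the Rps6k kinases and the symbols marked as pseudogenes. This gave 86 members among 55536 genes: 77 genes of the standard set, 8 paralogs (Rpl10l, Rpl39l, Rpl36al, Rpl3l, Rpl22l1, Rps27l, Rpl7l1 and Rps27rt) and Rps19bp1, which binds the ribosomal protein RPS19 and is not itself part of the ribosome. Fau, whose fusion product is cut to release a ribosomal protein and a ubiquitin-like protein, has another name and is no member.

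A ribosome joins a small subunit, which reads the mRNA, to a large subunit, which forms the peptide bond, and each ribosomal protein is needed in about the same number of copies. In most tissues the mRNAs of these proteins are abundant, begin at a C within a run of pyrimidines (the 5′ TOP motif) and are translated together under the control of the TOR pathway. During male meiosis the X chromosome is silenced, and autosomal copies of X-linked ribosomal protein genes, among them Rpl10l and Rpl39l, are known to be used in germ cells.

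The 24 libraries came from mouse testis cells enriched on a bovine serum albumin gradient for pachytene/diplotene spermatocytes or for round spermatids, in Ago413+/+, Ago413+/- and Ago413-/- males of 10 to 15 weeks on a C57BL/6J background, with testes of 2 to 5 mice in a preparation. The constitutive Ago413 deletion takes out all of Ago1, together with part of each of Ago3 and Ago4. No drug or other treatment was given in any group, fractions were pooled when above 70% of cells were of the wanted kind, and a library therefore stands for pooled animals and a mixed fraction. Spermatocytes had 5, 4 and 3 libraries in the order Ago413+/+, Ago413+/- and Ago413-/-, and round spermatids had 4 of each genotype.

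The 3 libraries that the labels call outliers (Ago413+/+ spermatocyte replicate 3, Ago413+/- spermatocyte replicate 4 and Ago413+/+ round spermatid replicate 3) were left out of the values and tests below unless named, which left 21. Libraries held 12825105 to 29749058 counts. Ago1 was at 0 counts in all Ago413-/- libraries and at 1.29 to 6.98 CPM (counts of a gene scaled to a common library total) in the others. The 10 markers of elongating spermatids summed to 24054 to 50456 CPM in the retained round spermatid libraries and to 5709 to 19658 CPM in the retained spermatocyte libraries. Ago413+/+ round spermatid replicate 3 was at 9087 CPM, in the range of spermatocytes, and goes against its label by this measure. The outlier spermatocyte libraries, Ago413+/+ replicate 3 at 21229 CPM and Ago413+/- replicate 4 at 19717 CPM, lay above the retained spermatocytes and below the retained round spermatids.

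Levels of genes are given as CPM of a library after scaling by the trimmed mean of M-values (TMM), while summed markers and Ago1 are plain CPM of the library total. Of the 77 standard members, 70 were neither X-linked nor overlapped by another gene over more than 20% of their exon bases on the same strand, and all of these were well expressed. In Ago413+/+ spermatocytes their mean levels ran from 41.2 CPM (Rpl22) through a median of 159 CPM to 770 CPM (Rplp0), and in Ago413+/+ round spermatids from 26.1 CPM (Rpl10a) through a median of 170 CPM to 830 CPM (Rplp0). Divided by transcript length, the lower and upper quartiles in Ago413+/+ spermatocytes were 155 and 366 CPM per kilobase, with Rpl10a lowest at 56.6 and Rpl41 highest at 859 CPM per kilobase. Rpl10a is the protein of the large subunit's L1 stalk, and Rpl41 is the shortest ribosomal protein.

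**Figure D1:**
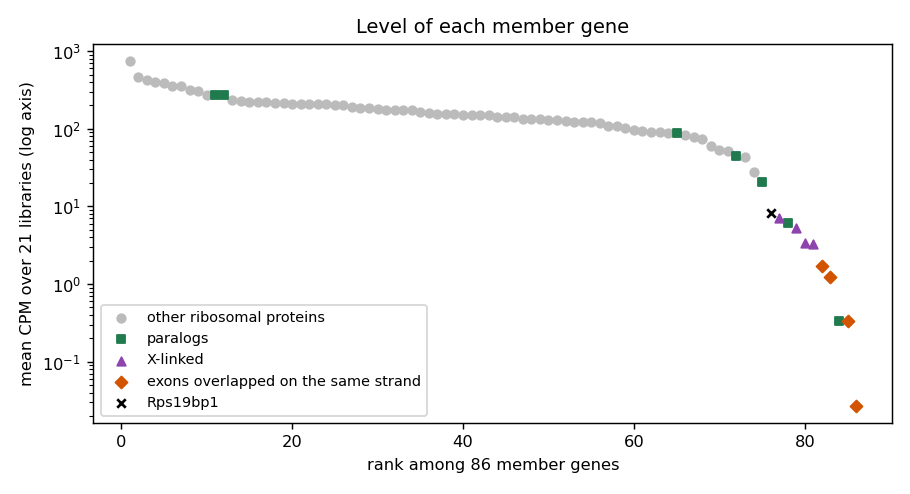
Mean level of each of the 86 member genes over 21 libraries (CPM after TMM scaling, log axis) against its rank, with marks for the X-linked members, the paralogs, the members overlapped by another gene and Rps19bp1. The X-linked members lie between 3.25 and 7.05 CPM and the overlapped members between 0.0272 and 1.70 CPM, while the median of the other 78 is 153.5 CPM.

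Rplp0, the base of the acidic stalk that recruits translation factors, was the most abundant member. It stood at 724 to 852 CPM in Ago413+/+ spermatocytes and at 782 to 874 CPM in Ago413+/+ round spermatids. Its stalk partners Rplp1 and Rplp2 and the small subunit protein Rpsa, also known as a laminin receptor, were at 172 ± 23, 118 ± 4.42 and 152 ± 11.7 CPM (SD, n = 4) in Ago413+/+ spermatocytes. In Ago413+/+ round spermatids the same genes were at 208 ± 29.4, 142 ± 24.3 and 179 ± 12.9 CPM (SD, n = 3).

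Of the 5 members with the lowest levels, 4 have exons that lie under another annotated gene on the same strand, and the other is Rpl3l. Rpl24 (chr16:55966275-55971435, GRCm38) shares 47.0% of its exon bases with Gm28037, Rpl13a (chr7:45125558-45128761) 35.4% with Gm45713, Rpl36al (chr12:69182731-69184083) 24.5% with Gm49383 and Rps10 (chr17:27630418-27636669) 20.6% with RPS10-NUDT3. These are the only members above 20%. Rpl24 had 13 counts in all 24 libraries, Rps10 had 172, Rpl13a 595 and Rpl36al 840. The overlapping genes were also near 0: Gm45713, Gm28037 and RPS10-NUDT3 had no count in any library used, and Gm49383 had at most 2.

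The deposited values count a read only where a single gene covers it, so reads in the shared exon parts would be given to neither gene. How much of the low level of these 4 members this accounts for was not tested. Rpl35, which lies under other genes over 66.2% of its exon bases on the opposite strand and 0% on the same strand, was at 149 ± 11.7 CPM in Ago413+/+ spermatocytes (SD, n = 4). Words of 31 bases that also occur in other genes make up 23.5% of the median member, 92.7% of Rps27rt, 75.1% of Rplp1 and 58.8% of Rpl19. Whether such near-identical copies bear on the levels was not tested.

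The X-linked members Rpl10, Rpl39, Rpl36a and Rps4x were low in every group, while the autosomal copies Rpl10l and Rpl39l were among the abundant members. The coding sequences of the large subunit gene Rpl39 (chrX:37082520-37085402) and of Rpl39l (chr16:10170226-10174911) are shown because reads can be told apart only at the bases that differ. Both have 156 bases, and the 23 bases that differ, which leave 85.3% identity, are in capitals:

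Rpl39: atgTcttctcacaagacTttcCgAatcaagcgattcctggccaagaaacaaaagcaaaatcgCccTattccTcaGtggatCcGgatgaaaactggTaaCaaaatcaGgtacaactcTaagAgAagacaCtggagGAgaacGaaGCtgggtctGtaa

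Rpl39l: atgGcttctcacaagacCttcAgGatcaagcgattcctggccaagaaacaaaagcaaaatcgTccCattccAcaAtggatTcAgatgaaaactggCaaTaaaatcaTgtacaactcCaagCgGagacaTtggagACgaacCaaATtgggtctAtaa

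The longest stretch without a difference is 38 bases in this pair. Rpl10 (chrX:74270812-74273135) and Rpl10l (chr12:66283379-66284401) differ at 98 of 645 coding bases, with a longest identical stretch of 23 bases. Rpl36a (chrX:134585654-134588062) and Rpl36al differ at 39 of 321. Rps27 and Rps27rt do not differ in any of 255 coding bases, so the 5.47 ± 2.89 CPM of Rps27rt in Ago413+/+ spermatocytes (SD, n = 4) beside 173 ± 18.6 CPM of Rps27 can be told apart only outside the coding sequence and are uncertain.

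Rpl39 stood at 1.78, 2.38, 2.76 and 1.25 CPM in the 4 Ago413+/+ spermatocyte libraries and at 3.60, 3.83 and 2.00 CPM in the 3 Ago413+/+ round spermatid libraries. Rpl39l stood at 318, 278, 293 and 295 CPM and at 289, 269 and 329 CPM in the same libraries. No library brought the pair near each other. Divided by transcript length, Rpl39l exceeded Rpl39 by 177 ± 66.8 times in Ago413+/+ spermatocytes (SD, n = 4) and 117 ± 57.6 times in Ago413+/+ round spermatids (SD, n = 3).

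Rpl10, a large subunit protein needed for the last step of subunit maturation, stood at 4.92, 4.84, 3.25 and 4.89 CPM in Ago413+/+ spermatocytes and at 7.47, 9.57 and 6.61 CPM in Ago413+/+ round spermatids. Rpl10l stood at 329, 301, 319 and 307 CPM and at 276, 265 and 285 CPM there. The ratio per kilobase of Rpl10l to Rpl10 was 56.7 ± 13.4 in Ago413+/+ spermatocytes (SD, n = 4), 28.0 ± 6.04 in Ago413+/+ round spermatids (SD, n = 3) and 20.7 ± 2.59 in Ago413-/- round spermatids (SD, n = 4). The lowest ratio in any library was 18.3.

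The small subunit gene Rps4x (chrX:102184941-102189394) stood at 1.68 ± 0.392 CPM in Ago413+/+ spermatocytes (SD, n = 4) and 3.45 ± 1.37 CPM in Ago413+/+ round spermatids (SD, n = 3). Its copy on chromosome 6, Rps4l (chr6:148354656-148355598), is annotated in M21 as a transcribed processed pseudogene and is therefore no member. Rps4l stood at 142 ± 3.56 CPM in Ago413+/+ spermatocytes and 148 ± 3.22 CPM in Ago413+/+ round spermatids. Only 0.491% of the 31-base words of Rps4x occur in Rps4l, so few reads could pass between them. Words shared with other genes make up 45.6% of those of Rps4x, mostly in the pseudogene Gm9616, and reads of those parts do not count where they align to several places.

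The pair Rpl36a and Rpl36al did not follow this pattern, since the autosomal copy was the lower gene. In Ago413+/+ spermatocytes Rpl36a stood at 3.00 ± 0.295 CPM and Rpl36al at 2.50 ± 0.439 CPM (SD, n = 4), with the overlap by Gm49383 described above. The other paralogs were at low or middle levels. Rpl22l1, an RNA-binding relative of Rpl22, was at 102 ± 9.32 CPM beside 41.2 ± 7.18 CPM for Rpl22 (SD, n = 4, Ago413+/+ spermatocytes), or 2.20 ± 0.494 times Rpl22 per kilobase. Rps27l and Rpl7l1 were at 0.210 ± 0.0210 and 0.135 ± 0.0235 times Rps27 and Rpl7 per kilobase. Rpl3l, the heart and skeletal muscle form of Rpl3, was at 0.156 ± 0.144 CPM beside 141 ± 13.5 CPM for Rpl3, which is about the limit of 0.101 to 0.234 CPM that 3 counts give at these depths.

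**Figure D2:**
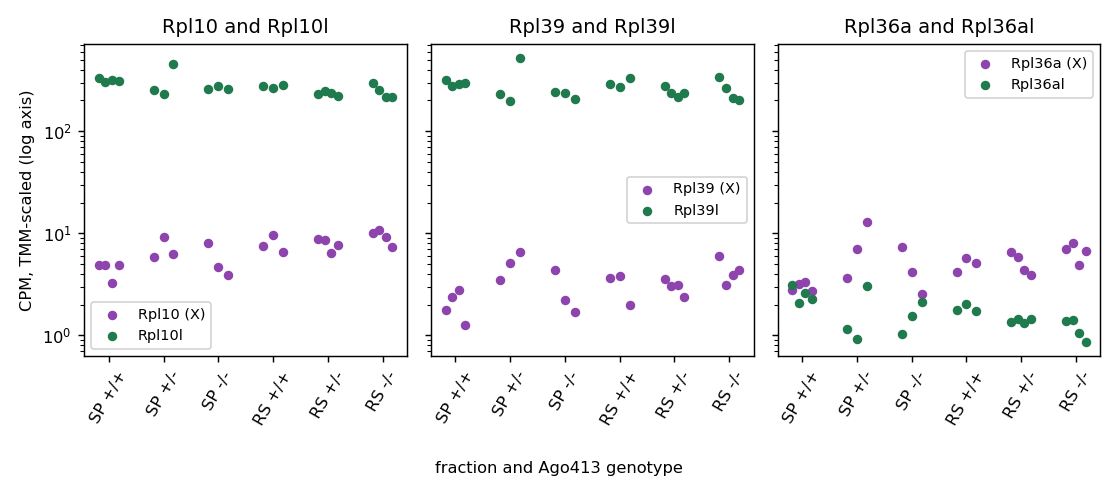
Levels (CPM after TMM scaling, log axis) of 3 X-linked members and their autosomal copies, with a point for each library in the 6 groups of fraction (SP, spermatocytes, and RS, round spermatids) and Ago413 genotype. Rpl10l and Rpl39l lie at or above 199 CPM in every library, Rpl10 and Rpl39 lie at or below 10.8 CPM, and Rpl36al lies above Rpl36a in 1 library.

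The annotated starts were read for the 5′ TOP motif in RefSeq promoters (GRCm38.p6), which matched 66 of the 86 members. A start at a C followed by 4 pyrimidines on the transcribed strand was found in 14 of the 66 members (21.2%) and in 813 of all 27025 genes with a promoter (3.01%). Windows of 15 bases on either side of the start are shown for some members, with the pyrimidine run across the start in capitals where it is 5 bases or longer. Of those printed, Rps27 and Rplp2 start at a C followed by 4 pyrimidines. The run in Rpl39 ends at its start base, a T, so Rpl39 does not have such a start. Rps27 lies at chr3:90213634-90213663 (minus strand), Rplp2 at chr7:141447636-141447665 (plus), Rpl39 at chrX:37085208-37085237 (minus), Rpl10 at chrX:74270801-74270830 (plus), Rpl10l at chr12:66284387-66284416 (minus) and Rpl39l at chr16:10170213-10170242 (plus):

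Rps27: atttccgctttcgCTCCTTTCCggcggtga

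Rplp2: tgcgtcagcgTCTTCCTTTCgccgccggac

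Rpl39: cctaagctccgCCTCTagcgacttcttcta

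Rpl10: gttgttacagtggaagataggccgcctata

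Rpl10l: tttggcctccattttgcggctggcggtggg

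Rpl39l: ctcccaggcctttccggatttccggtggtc

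Rpl10l and Rpl39l, the abundant autosomal copies, have no such run at their annotated start. This lack is not particular to them, since only 14 of the 66 matched members have the start at a C given above. Rplp0, the most abundant member, has no such run either, and nor do Rpsa and the X-linked Rpl10, Rpl36a and Rps4x. By a looser measure, CTTTC or CTTTT within 20 bases of the start, 24 of 66 members (36.4%) and 10.9% of all genes had a match. Rpl39l was among them and Rpl39 was not. An annotated start can lie some bases from the start used in testis, so a missing run says only that these letters are not at that base. In Ago413-/- against Ago413+/+ spermatocytes the median log2 fold change was -0.27 for the members with the motif (14 members) and -0.34 for the other matched members (50 tested), and this difference was not tested.

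Few ribosomal protein genes were called between spermatocytes and round spermatids. In Ago413+/+ mice, 5 of 85 tested members were called by edgeR's quasi-likelihood test (adjusted p under 0.05 and a log2 fold change above 0.5 in size), 2 higher and 3 lower in round spermatids, where 24.2% of all 20404 genes tested were called, 12.7% higher and 11.4% lower. The median log2 fold change of the members was 0.02, beside 0.02 over all genes. No test was made of that difference.

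The 2 members that rose were X-linked. Rps4x rose from 1.83, 2.16, 1.31 and 1.41 CPM in Ago413+/+ spermatocytes to 3.87, 4.56 and 1.93 CPM in round spermatids, by 1.08 ± 0.38 on the log2 scale (± SE, adjusted p = 0.039 by edgeR), and the lowest round spermatid library lay within the spermatocyte range. This call was lost in 5 of 7 fits that left out a library (Ago413+/+ spermatocyte replicate 1, 4 or 5, or round spermatid replicate 1 or 2), with values from 0.83 to 1.35. Rpl10 rose by 0.82 ± 0.25 (edgeR adjusted p = 0.0173), with all round spermatid libraries above all spermatocyte libraries, and its call was lost without spermatocyte replicate 4 or round spermatid replicate 2. Rpl36a and Rpl39, the other X-linked members, had log2 fold changes of 0.74 ± 0.35 and 0.65 ± 0.34 and were not called (edgeR adjusted p = 0.121 and 0.166). All counts of X-linked genes together made up 0.503 to 0.785% of a library in Ago413+/+ spermatocytes and 0.959 to 1.06% in Ago413+/+ round spermatids.

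The 3 members that fell were Rps19bp1 (-0.91 ± 0.27 on the log2 scale, edgeR adjusted p = 0.0167), Rps27a (-0.83 ± 0.22, adjusted p = 0.0074) and Rpl4 (-0.60 ± 0.13, adjusted p = 0.00258). Rps27a encodes a fusion of ubiquitin with a small subunit protein, and Rpl4 lines the peptide exit tunnel. Rpl4 stood at 344, 347, 357 and 263 CPM in spermatocytes and at 215, 203 and 231 CPM in round spermatids, with no overlap. The call of Rpl4 held in each fit that left out a library, while that of Rps27a was lost without round spermatid replicate 2 and that of Rps19bp1 without that library or spermatocyte replicate 1. Rpl10a, Rps3 and Rpl41 had log2 fold changes of -0.66, -0.52 and 0.41 and were not called by edgeR (adjusted p = 0.0549, 0.0698 and 0.324), while DESeq2 also called Rpl10a and Rps3 lower (7 members, 26.7% of all genes).

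The calls between fractions depend on which libraries are kept. With the outlier libraries added back, edgeR called no gene of any kind between the Ago413+/+ fractions or between the Ago413+/- fractions, and Rps4x was at 0.55 and Rpl10 at 0.37 on the log2 scale. Without Ago413+/+ round spermatid replicate 2 only 1 member was called (17.5% of all genes), without Ago413+/+ spermatocyte replicate 1 or 4 there were 3 (19.5 and 16.7% of all genes), and without replicate 5 there were 10 (31.6%). Scaling by library totals alone moved the median of all genes to -0.15 and gave 9 members lower and 0 higher (17.6% of all genes lower), so the calls of X-linked members hold relative to the other genes.

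In Ago413-/- mice, 6 of 85 members were called higher in round spermatids and none lower (17.1% of all genes called, 11.7% higher): Rps4x (1.97 ± 0.40 on the log2 scale, edgeR adjusted p = 0.00178), Rps20 (0.84 ± 0.28, adjusted p = 0.041), Rpl10 (0.77 ± 0.25), Rplp1 (0.68 ± 0.24), Rps19 (0.66 ± 0.23) and Rpl19 (0.65 ± 0.22). Apart from Rps4x, their edgeR adjusted p lay between 0.0353 and 0.049. The median of the members was 0.32 beside -0.00 for all genes, and was 0.041 beside -0.26 for all genes with library totals alone. DESeq2 called 5 members (19.9% of all genes), while edgeR called 1 with relative log expression (RLE) scaling (17% of all genes) and 1 with the outlier libraries added back (11.1%). By edgeR, Rps4x was the 1 member called without Ago413-/- spermatocyte replicate 2 or 3 or without Ago413-/- round spermatid replicate 1 or 2 (6.15 to 11.8% of all genes), and 11 members were called without Ago413-/- round spermatid replicate 4 (18.8%). With a block on consecutive library numbers 2 members were called (15.8% of all genes). Rps4x stood at 2.24, 1.70 and 0.541 CPM in Ago413-/- spermatocytes and at 8.28, 6.38, 4.56 and 4.06 CPM in Ago413-/- round spermatids, which do not overlap.

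In Ago413+/- mice, 3 of 85 members were called and all were lower in round spermatids (8.89% of all genes called, 1.82% lower): Rps27a (-0.70 ± 0.21, edgeR adjusted p = 0.0411), Rps3 (-0.67 ± 0.21, adjusted p = 0.0427) and Rpl5 (-0.63 ± 0.18, adjusted p = 0.0285), the last a carrier of the 5S RNA. DESeq2 called 5 members (11.2% of all genes). No member was called by edgeR without Ago413+/- spermatocyte replicate 3 or without Ago413+/- round spermatid replicate 1, 3 or 4 (4.72 to 7.99% of all genes), while without Ago413+/- spermatocyte replicate 1 and replicate 2 there were 7 and 18 (7.94 and 11.5%). With a block on consecutive library numbers no member was called (5.83% of all genes). The median of the members was -0.26, and 0.11 without spermatocyte replicate 3. Without that replicate Rps27a, Rps3 and Rpl5 were at -0.39, -0.43 and -0.28 on the log2 scale. Whether the change between fractions differed by genotype was tested as an interaction, and neither edgeR nor DESeq2 called any gene (0%). Over members, 2 of 85 had an unadjusted edgeR p under 0.05 for Ago413-/- and 5 of 85 for Ago413+/-, beside 5.95% and 7.72% of all genes.

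Other genes of the translation apparatus were called between the Ago413+/+ fractions in both directions, to be read beside the 24.2% of all genes called (12.7% higher and 11.4% lower). Among 18 elongation factors and related TOP genes 3 were higher and 3 lower, among them Eef1g (1.08 ± 0.24 on the log2 scale, edgeR adjusted p = 0.00219) and Tpt1 (0.79 ± 0.21) higher. Npm1, which carries ribosomal parts in the nucleolus, was lower by -0.73 ± 0.19 (adjusted p = 0.00684). Of 32 ribosome biogenesis genes 1 was higher and 4 were lower, with a median of -0.27. Rack1, the scaffold on the small subunit, was lower by -0.64 ± 0.23 (adjusted p = 0.048 by edgeR). Of 24 other initiation factors 5 were higher and 1 lower, and of 14 TOR and TOP regulators tested 2 were higher and 2 lower.

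**Figure D3:**
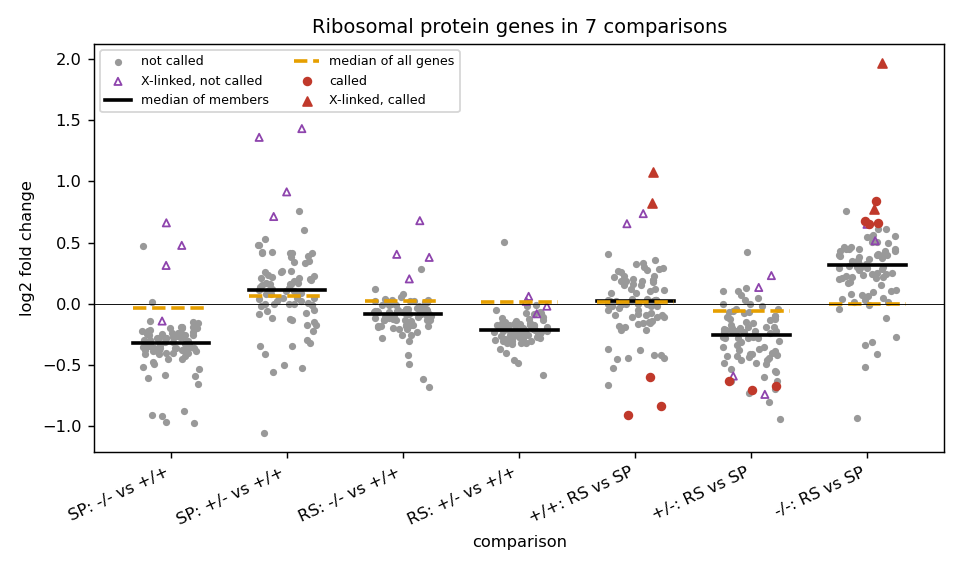
Log2 fold change of each tested member in 7 comparisons, with called members in red, X-linked members as triangles, the median of the members as a black line and the median of all genes as a dashed line. In spermatocytes the Ago413-/- median lies at -0.32 with no member called, and in Ago413+/+ mice the median between fractions lies at 0.02.

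Most ribosomal protein genes had lower values in Ago413-/- than in Ago413+/+ spermatocytes, by small amounts that did not pass the edgeR test. None of 84 tested members was called by edgeR, where 8 of 19450 genes were (0.0411%), and DESeq2 called 6 lower and none higher (15.2% of all genes called, 6.25% lower). The log2 fold change was below 0 in 79 of 84 members, beside 51.7% of all genes, and the median of the members was -0.32 beside -0.03. Every Ago413-/- library lay below every Ago413+/+ library in 48 of 84 members, beside 14.8% of all genes. An unadjusted edgeR p under 0.05 was found in 13 members, all lower, a share under the 30.4% of all genes.

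The lowest log2 fold changes were those of Rps27a, Rps19bp1, Rpl14, Rps3 and Rpl10a. Rps27a stood at 184, 156, 184 and 114 CPM in Ago413+/+ spermatocytes and at 66, 100 and 74.4 CPM in Ago413-/- spermatocytes, or -0.97 ± 0.24 on the log2 scale (edgeR adjusted p = 0.0599, DESeq2 adjusted p = 0.0124). Rps3, a small subunit protein at the mRNA entry, stood at 151, 138, 155 and 88.9 CPM and at 68.8, 83.6 and 58.0 CPM, or -0.90 ± 0.23 on the log2 scale (edgeR adjusted p = 0.0599, DESeq2 0.0133). The genotypes do not overlap in either gene, and in both the Ago413+/+ replicate 5 is the nearest to the Ago413-/- libraries.

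Rps19bp1 stood at 18.5, 15.1, 17.5 and 10.8 CPM in Ago413+/+ spermatocytes and at 5.96, 10.6 and 6.83 CPM in Ago413-/- spermatocytes (-0.97 ± 0.28, edgeR adjusted p = 0.0661). Rpl14 and Rpl10a, both of the large subunit, had log2 fold changes of -0.91 ± 0.27 and -0.87 ± 0.29 (edgeR adjusted p = 0.0678 and 0.0828). In these genes Ago413+/+ replicate 5, at 42.7 and 20.5 CPM, lay within the Ago413-/- range. Those 5 genes and Rpl15 (-0.58 ± 0.18) are the 6 that DESeq2 called. Without Ago413+/+ spermatocyte replicate 5, edgeR called 8 of 84 members, all lower, where 23.6% of all genes were called and 9.71% were lower. Of the retained spermatocyte libraries numbered above 60, that replicate was the 1 of Ago413+/+ and 2 were Ago413-/-. Library number and genotype can therefore not be fully told apart. Replicate 5 also had the highest round spermatid marker sum of its group (1889 CPM).

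**Figure D4:**
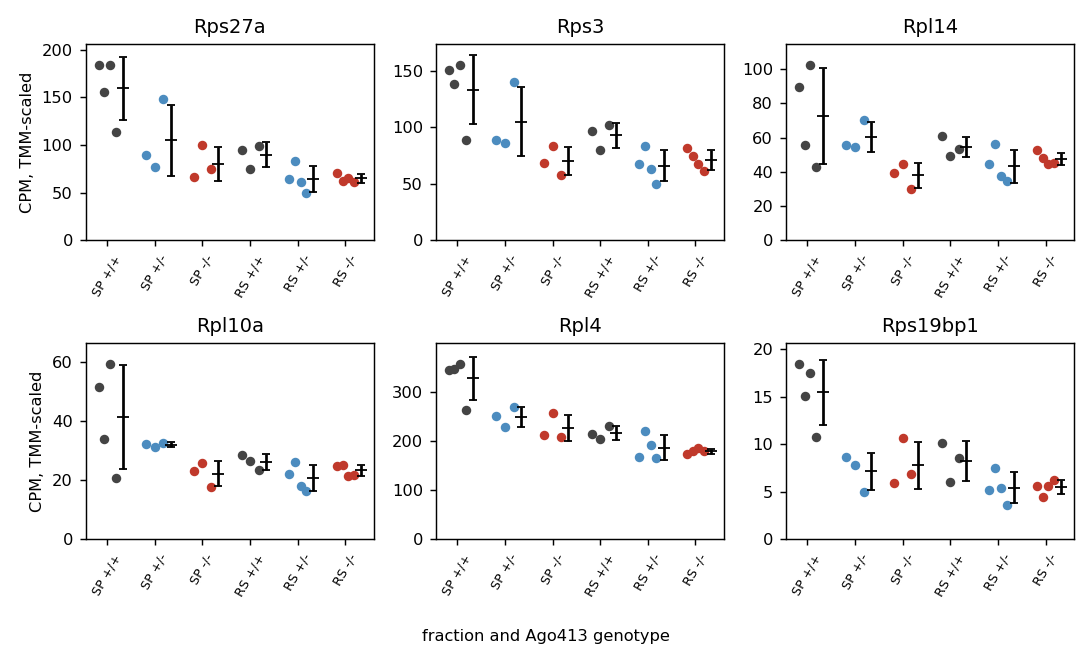
Levels (CPM after TMM scaling, axes from 0) of 6 members in each library by fraction (SP, spermatocytes, and RS, round spermatids) and Ago413 genotype, with the mean and SD of each group. The mean of Rps27a is 160 CPM in Ago413+/+ and 80.3 CPM in Ago413-/- spermatocytes, and that of Rpl4 is 328 and 226 CPM.

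Both subunits had like medians in Ago413-/- spermatocytes, -0.34 over 50 large subunit genes and -0.30 over 33 small subunit genes. The stalk genes Rplp0, Rplp1 and Rplp2 were at 625 ± 69.4, 128 ± 17 and 98.1 ± 12.1 CPM in Ago413-/- spermatocytes (SD, n = 3), below the Ago413+/+ levels given above in every library. The autosomal copies Rpl10l and Rpl39l were also lower in every library, at 266 ± 9.83 and 229 ± 18.5 CPM (SD, n = 3).

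Most X-linked members were at the other end of the range. Rpl36a, Rpl39 and Rpl10 had log2 fold changes of 0.66 ± 0.41, 0.48 ± 0.39 and 0.31 ± 0.31 in Ago413-/- spermatocytes and Rps4x -0.14 ± 0.44, none of them called. Rps10 (0.47 ± 0.61) and Rpl35 (0.02 ± 0.21) were the other members above 0. Rpl36a stood at 2.80, 3.20, 3.30 and 2.70 CPM in Ago413+/+ spermatocytes and at 7.26, 4.15 and 2.54 CPM in Ago413-/- spermatocytes, so 1 library carries most of the difference. That library, Ago413-/- spermatocyte replicate 1, was also the highest retained spermatocyte library for the elongating spermatid markers, and X-linked genes made up 1.19% of its counts. They made up 0.837 and 0.863% in the other Ago413-/- spermatocyte libraries, so all Ago413-/- libraries lay above the 0.503 to 0.785% of the Ago413+/+ spermatocytes, and the part of this in the values of the X-linked members was not tested. Without Ago413-/- spermatocyte replicate 1, Rpl10, Rpl39 and Rps10 were at -0.09, -0.06 and -0.06.

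In spermatocytes the summed markers of some cell types lay in separate ranges in Ago413+/+ and Ago413-/- libraries, while those of others overlapped. The 8 leptotene and zygotene markers summed to 222 to 480 CPM in Ago413+/+ and to 183 to 206 CPM in Ago413-/- spermatocytes, which do not overlap, with none of the 8 called by edgeR. The 10 pachytene and diplotene markers summed to 1787 to 2415 CPM in Ago413+/+ and to 1362 to 1644 CPM in Ago413-/- spermatocytes, with none of the 10 called by edgeR. For the leptotene and zygotene and the pachytene and diplotene lists only sums and calls are given. A sum can rest on a few abundant markers. The 10 round spermatid markers summed to 1121 to 1889 CPM in Ago413+/+ and to 1896 to 2279 CPM in Ago413-/- spermatocytes, with all 10 above 0 and none called. The 10 Sertoli cell markers summed to 235 to 608 CPM in Ago413+/+ and to 144 to 274 CPM in Ago413-/- spermatocytes, which overlap, with all 10 below 0 and none called. The spermatogonia markers (72.4 to 121 and 69.3 to 103 CPM) and the elongating spermatid markers (5709 to 12339 and 7020 to 19658 CPM) overlapped too. The part of all these markers in the shift of the ribosomal protein genes was not tested. In bulk samples fewer cells of a type and less RNA per cell cannot be told apart.

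The share of all counts that came from the 86 members compares the groups with library totals as the only scaling. It was 1.63, 1.45, 1.57 and 1.40% in the Ago413+/+ spermatocyte libraries and 1.32, 1.27 and 1.09% in the Ago413-/- spermatocyte libraries, which do not overlap. The means were 1.51 ± 0.105% (SD, n = 4) and 1.23 ± 0.121% (SD, n = 3), and the outlier library of Ago413+/+ spermatocytes was at 1.16%, within the Ago413-/- range. Among libraries numbered up to 60 the means were 1.55% (3 Ago413+/+ libraries) and 1.32% (1 Ago413-/- library), and above 60 they were 1.40% (1) and 1.18% (2).

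**Figure D5:**
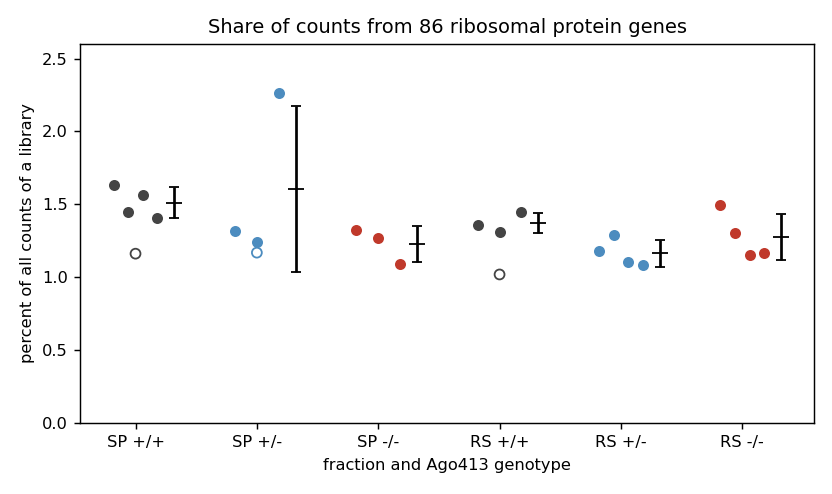
Percent of all counts of a library that came from the 86 member genes, by fraction (SP, spermatocytes, and RS, round spermatids) and Ago413 genotype, with the mean and SD of the retained libraries and the 3 outlier libraries as open circles. Ago413+/- spermatocyte replicate 3 stands at 2.26%, and the Ago413-/- spermatocytes lie at 1.09 to 1.32% below the retained Ago413+/+ spermatocytes.

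In round spermatids, Ago413-/- and Ago413+/+ libraries overlapped in their shares of counts. None of 83 tested members was called in Ago413-/- against Ago413+/+ by edgeR, where 10 of 19310 genes were (0.0518%), or by DESeq2 (3.62% of all genes called), and 6 had an unadjusted edgeR p under 0.05, beside 19.3% of all genes. The median was -0.08 beside 0.03 over all genes, and 66 of 83 members were below 0, beside 47.3% of all genes. The share of counts was 1.36, 1.31 and 1.44% in Ago413+/+ and 1.49, 1.30, 1.15 and 1.16% in Ago413-/- round spermatids, which overlap. The 10 pachytene and diplotene markers summed to 1162 to 1251 CPM in Ago413+/+ and to 868 to 1105 CPM in Ago413-/- round spermatids, with 7 of 10 below 0 and 1 called by edgeR. The 8 leptotene and zygotene markers summed to 142 to 161 CPM in Ago413+/+ and to 102 to 141 CPM in Ago413-/- round spermatids, with 6 of 8 below 0 and none called. Neither pair of ranges overlaps, and their part in the values of the members was not tested.

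Several genes with the lowest values in round spermatids were those with the lowest in spermatocytes. The comparisons have no library in common, but whether spermatocyte and round spermatid libraries came from the same preparations is not given, so the fractions are not taken as independent. Rps27a stood at 95.2, 74.5 and 98.9 CPM in Ago413+/+ and at 70.5, 62.1, 65.7 and 60.9 CPM in Ago413-/- round spermatids, with no overlap and a difference of -0.49 ± 0.16 on the log2 scale (edgeR adjusted p = 0.124). Rps19bp1 was at -0.61 ± 0.25, Rps3 at -0.42 ± 0.16 and Rpl4 at -0.30 ± 0.13 on the log2 scale, none of them called. Rpl36al had the lowest value, -0.68 ± 0.25, at 1.83 ± 0.165 CPM in Ago413+/+ (SD, n = 3) and 1.18 ± 0.270 CPM in Ago413-/- round spermatids (SD, n = 4). Ago413+/- round spermatids, set against the same Ago413+/+ libraries, also had their lowest values in Rps19bp1, Rps3, Rps27a and Rpl36al. These were at -0.58, -0.48, -0.46 and -0.40, and Rpl4 at -0.20, none of them called. In Ago413+/- against Ago413+/+ spermatocytes the lowest were Rps19bp1 (-1.06) and Rps27a (-0.56), with Rps3 at -0.29.

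The X-linked members were at the other end in round spermatids as well. Rps4x stood at 3.87, 4.56 and 1.93 CPM in Ago413+/+ and at 8.28, 6.38, 4.56 and 4.06 CPM in Ago413-/- round spermatids, 0.68 ± 0.30 on the log2 scale, which was not called (edgeR adjusted p = 0.231). Rpl39, Rpl36a, Rps27rt and Rpl10 followed at 0.40 ± 0.27, 0.38 ± 0.22, 0.28 ± 0.28 and 0.20 ± 0.18. These values stayed above 0 but moved when 1 library was left out. Without Ago413+/+ replicate 2, Rps4x, Rpl39 and Rpl10 were at 0.95, 0.59 and 0.39, and without Ago413+/+ replicate 4 at 0.41, 0.18 and 0.092, the ends of their ranges. Rps27rt ran from 0.049 without Ago413+/+ replicate 2, and 0.050 without Ago413-/- replicate 1, to 0.64 without Ago413+/+ replicate 4, and Rpl36a from 0.25 without Ago413+/+ replicate 1 to 0.51 without replicate 2. X-linked genes as a whole made up 0.959 to 1.06% of counts in Ago413+/+ and 1.26 to 1.44% in Ago413-/- round spermatids, and their part in these values was not tested.

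Among Ago413+/- spermatocytes 1 library stood apart. In Ago413+/- spermatocytes the members took 1.32, 1.24 and 2.26% of counts, the last in replicate 3, and the outlier library was at 1.17%. Replicate 3 was the highest of the 3 libraries in 80 of 85 members. The median member stood at 1.88 times the mean of the other 2 libraries and 67 of 85 members (78.8%) above 1.5 times, beside a median of 0.964 and 24.1% over all genes. The highest ratios were those of Rpl37a (4.30), Rpl38 (3.50), Rpl22l1 (3.23), Rpl36 (3.03) and Rps24 (3.00), while Rps19bp1 (0.600), Rpl7l1 (0.764), Rpl3l (0.807) and Rpl10 (0.827) were below 1. This library also had the highest sum of round spermatid markers (2841 CPM) and the lowest of Sertoli cell markers (128 CPM) of all libraries, and their part was not tested.

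None of 84 members was called in Ago413+/- against Ago413+/+ spermatocytes by edgeR (0.0257% of all genes called), while DESeq2 called Rpl36a and Rpl39 higher and Rps19bp1 lower (6.16% of all genes, 3.48% higher and 2.69% lower). In all, 8 members had an unadjusted edgeR p under 0.05, beside 24.6% of all genes. Rpl36a stood at 3.68, 7.02 and 12.8 CPM and Rpl39 at 3.49, 5.10 and 6.51 CPM in Ago413+/- spermatocytes, all above the Ago413+/+ libraries, or 1.43 ± 0.41 and 1.36 ± 0.38 on the log2 scale (edgeR adjusted p = 0.124 for each). X-linked genes as a whole made up 0.917 to 0.949% of counts in Ago413+/- and 0.503 to 0.785% in Ago413+/+ spermatocytes, and the pachytene and diplotene markers summed to 1428 to 1607 CPM in Ago413+/- and 1787 to 2415 CPM in Ago413+/+ spermatocytes, with 8 of 10 below 0 and none called by edgeR. Neither pair of ranges overlaps, and their part in these values was not tested. Rps19bp1 stood at 8.68, 7.84 and 4.96 CPM, all below, or -1.06 ± 0.29 on the log2 scale (edgeR adjusted p = 0.124). The median of the members was 0.11 with replicate 3 and -0.31 without it.

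In Ago413-/- against Ago413+/- spermatocytes no member of 84 was called by edgeR (0.00514% of all genes called) or DESeq2 (0.0206%), 18 had an unadjusted edgeR p under 0.05, beside 3.74% of all genes, and the median of -0.43 became -0.05 without that library. In round spermatids, no member was called in Ago413+/- against Ago413+/+ (0.0207% of all genes called by edgeR and 0.0414% by DESeq2) or in Ago413-/- against Ago413+/- (0.00518% and 0.104%). The medians there were -0.22 and 0.13, and 12 and 1 of 83 members had an unadjusted edgeR p under 0.05, beside 8.88% and 7.67% of all genes. The Ago413+/- round spermatids had shares of 1.18, 1.29, 1.10 and 1.09%, all below the retained Ago413+/+ round spermatids. With TMM-scaled counts the groups overlap, since Ago413+/- replicate 1 was at 1.41% and Ago413+/+ replicate 2 at 1.32%. In that comparison 80 of 83 members were below 0, beside 48.2% of all genes, and 17 of 83 members lay below Ago413+/+ in every library, beside 5.39% of all genes.

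In several groups 1 library was highest or lowest for most members. Ago413-/- round spermatid replicate 1 was the highest of 4 libraries in 75 of 85 members, Ago413-/- spermatocyte replicate 3 the lowest of 3 in 78, and Ago413+/+ round spermatid replicate 2 the lowest of 3 in 71. In Ago413+/+ spermatocytes the order was looser, and replicate 1 was the highest of 4 in 44. The members are therefore not independent of each other, and counts of members above or below 0 describe the libraries at hand.

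In Ago413-/- against Ago413+/+ spermatocytes edgeR called none of 18 elongation factors and TOP genes, 24 other initiation factors, 32 ribosome biogenesis genes and 14 TOR and TOP regulators, and their medians were -0.14, -0.12, -0.19 and -0.07. DESeq2 called 1 lower among the elongation factors, 2 higher and 3 lower among the initiation factors and 4 lower in biogenesis, beside 15.2% of all genes (6.25% lower). Rack1 was at -0.70 ± 0.25, with a mean of 79.3 CPM in Ago413+/+ and 47.9 CPM in Ago413-/- spermatocytes (edgeR adjusted p = 0.0929), while Fau was at -0.22 ± 0.25. Eef1b2, an exchange factor of elongation, was at -0.61 ± 0.22 (edgeR adjusted p = 0.0947) and Larp1, a protein that binds TOP mRNAs, at -0.32 ± 0.15.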

How the data were processed

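The authors deposited raw counts per gene for poly(A) RNA of 24 directional libraries, made with Trim Galore and STAR gene counting on mm10 per the labels and the study's methods. The strand setting and the annotation release are not given in the sources used here. STAR keeps only uniquely aligned reads that belong to 1 gene.

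All 55536 identifiers were found in GENCODE M21, which gave symbols and coordinates. Genes with 10 or more counts in 3 or more libraries were tested with the edgeR 4.0.16 quasi-likelihood test (TMM scaling, Benjamini-Hochberg adjustment over all genes tested), separately in each fraction for genotypes and over all 21 retained libraries for fractions and interactions. Calls required an adjusted p under 0.05 and a change of more than 0.5 on the log2 scale in either direction. DESeq2 1.42.0, other scalings, no filter, a replicate block and leaving out each library were alternatives. The fits were also run on simulated counts drawn independently for each gene. Those counts hold no shift that moves many members of a library together, so they cannot test the fits for such shifts. Chi-square per gene between replicates was 9.75 to 179, so none was counted as a duplicate.

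Named genes were the X-linked members, the paralogs and their parents, the stalk genes and Rpsa, Rps19bp1, and the 5 highest and 5 lowest members in each Ago413-/- comparison and in the Ago413+/+ fraction comparison. The rule, members and lists were chosen with earlier results of these data known, and other members named with values were chosen after their values were seen. Promoters came from RefSeq. Whether libraries came from separate preparations is given only as replicate numbers, so p-values measure the spread between these libraries.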

Additional observations from a re-analysis of the deposited data

Results flagged for a closer look

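In groups of 4 libraries, the highest or lowest value was compared with the rest by Dixon's ratio for the share of counts and the named members, and 4 of 90 such sets passed the 95% limit, where chance flags about 1 in 20. Rpl10 in Ago413+/+ spermatocyte replicate 4 stood at 3.25 CPM, below the other libraries at 4.84 to 4.92 CPM. Rpl4 in Ago413+/+ spermatocyte replicate 5 stood at 263 CPM, below the others at 344 to 357 CPM. Rpl3l in Ago413+/- round spermatid replicate 1 stood at 1.18 CPM, above the others at 0.241 to 0.270 CPM. Rpl22l1 in the same library stood at 67.5 CPM, below the others at 73.3 to 74.1 CPM.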

How the results depend on the processing

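Of the group values (counts of members called, medians and shares) under alternatives, 292 were classed as the same as the reported value and 46 as moved. The limit between these classes is not stated here, so the split is only a rough guide. Of the values of named genes, 473 kept their call and direction, 94 lost a call, 31 gained one and 6 changed sign. The cause of these moves was not tested unless named. Members called between the Ago413+/- fractions (3) were 26 with library totals (13.7% of all genes called), 9 without the filter (5.83%) and 5 with DESeq2 (11.2%). They were 0 with the outlier libraries back, where no gene of any kind was called, and 0 with a replicate block by consecutive library numbers (5.83%). With a library number term there was 1, and with the 2 groups alone 0. The shares of all genes in these last fits are not given, so their counts are not read as a result about the members. Between the Ago413-/- fractions (6) they were 1 with RLE scaling or the outlier libraries back, 2 with library totals, a library number term or the block by consecutive numbers, and 11 without the filter (10.7%, against 11.1 to 23.9% in the others). Between the Ago413+/+ fractions (5) they were 9 with library totals (27.3%), 9 with the replicate block (30.3%) and 0 with the outlier libraries back. In spermatocytes, Ago413-/- against Ago413+/+ (0) gave 5 without the filter (7.61%), 6 with DESeq2 (15.2%), and 2 with the replicate block (3.53%) or the 2 groups alone (6.93%). Ago413+/- against Ago413+/+ (0) gave 4 without the filter (4.30%) and 3 with DESeq2 (6.16%), and Ago413-/- against Ago413+/- (0) gave 1 without the filter (0.0871%).

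With library totals alone the median of the members was -0.15 between the Ago413+/+ fractions and 0.041 between the Ago413-/- fractions, while the median of all genes was -0.15 and -0.26, and -0.28 in Ago413+/-. The percent of calls that were higher in round spermatids went from 52.7 to 35.7 in Ago413+/+, from 79.5 to 37.8 in Ago413+/- and from 68.4 to 34.2 in Ago413-/-. The Ago413+/+ round spermatid share of 1.37% was 1.45% with TMM-scaled counts, 1.29% without Rplp0 and 1.28% with the outlier library.

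Leaving out each library gave 0 to 18 members called between the Ago413+/- fractions, 1 to 11 in Ago413-/- and 1 to 10 in Ago413+/+. It gave 0 to 8 for Ago413-/- against Ago413+/+ spermatocytes, and the shares of all genes for the ends of these ranges called stand with the results above. For Ago413+/- against Ago413+/+ spermatocytes it gave 0 to 2, with 2 without Ago413+/+ replicate 5, and the median ran from -0.31 to 0.27. The share of all genes in that fit is not given, so its count is not read as a result about the members. In Ago413-/- against Ago413+/+ spermatocytes, Rpl10 ran from -0.093 to 0.52, Rpl39 from -0.063 to 0.74, Rps10 from -0.056 to 1.06 and Rpl35 from -0.069 to 0.086, and Rpl35 was -0.041 with the replicate block. Replicate numbers do not pair the libraries: deviations of same-numbered libraries correlated by -0.24 to 0.31, and 8 of 26 pairs were over 0.1. Of 9 spermatocyte and round spermatid pairs with consecutive library numbers, which the labels do not explain, 8 were over 0.1 and the lowest was -0.14.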
